A study of Mus musculus with 8 samples.

Results

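Expression of 10 genes of apolipoprotein production and chylomicron assembly (Apob, Apoa1, Apoa4, Apoc2, Apoc3, Mttp, Tm6sf2, Sar1b, Apobec1 and Creb3l3) was compared in mouse ileum. They were chosen by gene symbol, and every probe set annotated with exactly 1 of these symbols was read, which gave 12 probe sets among 45037 and 10 of 17097 tested genes. Total RNA came from 4 ileal samples of Slc51a knockout mice and 4 of wild-type mice, labelled as biological replicates, all from males of about 2 months on a C57BL/6 background that had been fasted for 4 h and anaesthetised with ketamine-xylazine. Slc51a encodes a subunit of the transporter that carries bile acids out of the enterocyte at its basolateral membrane, and the sources used here do not say how the gene was inactivated. Each sample was hybridised to 1 Affymetrix 3' expression array, and the question was how ileal expression differs in mice without Slc51a. The labels do not say that each sample is a separate animal, so p-values measure only the spread between these samples, which may be technical.

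Chylomicrons are the particles in which enterocytes export dietary triglyceride, cholesterol and fat-soluble vitamins into lymph. In the endoplasmic reticulum a single apolipoprotein B molecule is lipidated by the microsomal triglyceride transfer protein, the growing particle takes on further apolipoproteins, and it leaves in vesicles that depend on the COPII coat. In blood, apolipoprotein C-II activates lipoprotein lipase on the particle and apolipoprotein C-III inhibits it. In the mouse the Apoa1, Apoc3 and Apoa4 genes lie side by side on chromosome 9, and Apoc2 lies in a separate cluster on chromosome 7. In the ileum bile acids are taken up, and fat absorption is known to be more active in the jejunum.

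The regulatory sequence immediately upstream is shown for Apoa1, Apoa4, Apob and Apoc2, because these apolipoprotein genes changed in both directions. Promoter windows, running from 250 bases before to 50 bases after the annotated start, were found for 8 of the 10 genes in RefSeq of mouse build GRCm38.p6, the others being Apoc3 and Tm6sf2. The windows are chr9:46228380-46228679 on the plus strand for Apoa1, chr9:46240594-46240893 on the plus strand for Apoa4, chr12:7977427-7977726 on the plus strand for Apob and chr7:19677892-19678191 on the minus strand for Apoc2. Each is written 5′ to 3′ in the direction of transcription, and capitals mark a match on either strand to CAAAGNNCA, the core of elements bound by HNF4-type nuclear receptors.
Apoa1: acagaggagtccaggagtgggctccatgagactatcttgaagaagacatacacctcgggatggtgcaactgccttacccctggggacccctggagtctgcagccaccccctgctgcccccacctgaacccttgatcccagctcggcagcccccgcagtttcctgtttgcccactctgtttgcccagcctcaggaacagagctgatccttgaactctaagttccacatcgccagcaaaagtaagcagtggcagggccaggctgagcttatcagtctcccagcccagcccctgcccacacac
Apoa4: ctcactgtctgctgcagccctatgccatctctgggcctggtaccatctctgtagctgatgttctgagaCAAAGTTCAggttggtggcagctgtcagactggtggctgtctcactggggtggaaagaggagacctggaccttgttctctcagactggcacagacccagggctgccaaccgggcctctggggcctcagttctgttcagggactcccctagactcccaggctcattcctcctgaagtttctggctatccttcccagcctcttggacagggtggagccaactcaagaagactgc
Apob: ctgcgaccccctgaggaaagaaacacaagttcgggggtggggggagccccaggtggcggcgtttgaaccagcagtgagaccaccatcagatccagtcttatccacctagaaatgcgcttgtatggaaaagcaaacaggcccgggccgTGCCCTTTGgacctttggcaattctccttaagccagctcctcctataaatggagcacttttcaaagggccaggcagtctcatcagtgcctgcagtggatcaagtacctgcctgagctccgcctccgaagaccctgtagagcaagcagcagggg
Apoc2: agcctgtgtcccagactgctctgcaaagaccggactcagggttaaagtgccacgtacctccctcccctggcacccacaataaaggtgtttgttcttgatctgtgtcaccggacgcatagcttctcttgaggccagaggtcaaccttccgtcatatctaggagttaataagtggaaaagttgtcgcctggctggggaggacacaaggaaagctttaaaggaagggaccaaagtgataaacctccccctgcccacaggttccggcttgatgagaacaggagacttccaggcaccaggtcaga

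The motif was found in the Apoa4 window 182 bases before the start and, on the opposite strand, in the Apob window 103 bases before it. It was also found in the window of Apobec1 and in 1 of the windows of Creb3l3, and no match was present in these windows of Apoa1, Apoc2, Mttp or Sar1b. Of 32851 mouse promoter windows of the same length, 6.36% held a match. The letters TGACGT, the core of elements bound by CREB-type factors, were found in 7.51% of windows and, among the 8 genes, in that of Mttp, on the opposite strand. The TATA letters TATAAA were found in 13.6% of windows, in that of Apob 60 bases before the start and in that of Apobec1 on the opposite strand. The motifs were chosen after the sequences were seen, they do not overlap each other in these windows, and a match describes letters and not binding. A window without a match may still hold a site written in other letters.

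Array medians lay between 4.559 and 4.604 on the log2 scale, and correlations across probe sets were 0.996 to 0.998 between arrays of 1 genotype and 0.988 to 0.992 between genotypes. The mean signal of the hybridization controls was 9.02, 8.95, 8.74 and 8.86 on knockout arrays, against 9.04, 8.83, 9.08 and 9.15 on wild-type arrays, so the 3 lowest were knockout replicates 3 and 4 and wild type replicate 2. Slc51a had 4.67, 4.50, 4.68 and 4.56 in knockout samples, against 11.36, 11.41, 11.29 and 11.37 in wild-type samples, which matches the labels. The ileal genes Fabp6 and Slc10a2 were bright in both genotypes, Fabp6 at 13.18 in knockout and 13.11 in wild type and Slc10a2 at 10.97 in knockout and 11.42 in wild type. Of 5 measured distal ileum genes, 1 rose, 2 fell and 2 did not pass, Fabp6 being one of the latter. Slc10a2 and Slc51b differed by -0.45 and -0.36 (limma adjusted p = 0.000528 and 0.00227). Guca2a rose by 0.19 (limma adjusted p = 0.00954), a call lost in 2 alternatives. Of 7 genes known for higher levels in proximal intestine, Npc1l1, Ada and Dnase1 fell (differences -0.71, -2.74 and -1.31), Fabp1 rose by 0.76, and Gata4, Cyp8b1 and Onecut2 did not pass and lay under the median probe set signal in both genotypes. Their summed linear signal was 1417 to 1618 in knockout samples and 2349 to 2938 in wild-type samples. Most of the difference between these sums came from Npc1l1 and Ada, and the median difference of the 7 genes was -0.03. Ada is also one of the villus tip genes described below, so these lists are not independent. Levels are given as log2 signal after normalisation, so 1 unit corresponds to a 2-fold change, and no level is compared between genes.

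Of the 10 genes, Apoc2 rose, 6 fell (Apoc3, Apob, Creb3l3, Apoa1, Apoa4 and Mttp) and 3 did not pass the test (Apobec1, Sar1b and Tm6sf2), tested with limma at an adjusted p of 0.05 (Benjamini-Hochberg, all genes). Over all 17097 genes 30.0% passed, 17.1% higher and 12.9% lower in the knockout, so passing was common in these samples. Of the 12 probe sets 1 rose, 7 fell and 4 did not pass, beside 21.6% called over all probe sets. The 2924 higher and 2210 lower genes became 3730 and 1767 when the arrays were scaled to pan-epithelial genes, and 2509 and 2646 with cyclic loess. By size of difference, Apoc3 had rank 39 and Apob rank 93 from the lowest difference of all genes, and Apoc2 had rank 11 from the highest. The median of the 10 differences was -0.33, beside 0.01 over all genes. Samples of the genotypes did not overlap for 7 of the 10 genes, against 30.7% of all genes. In whole tissue, fewer cells of a type and less RNA per cell cannot be told apart.

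**Figure D1:**
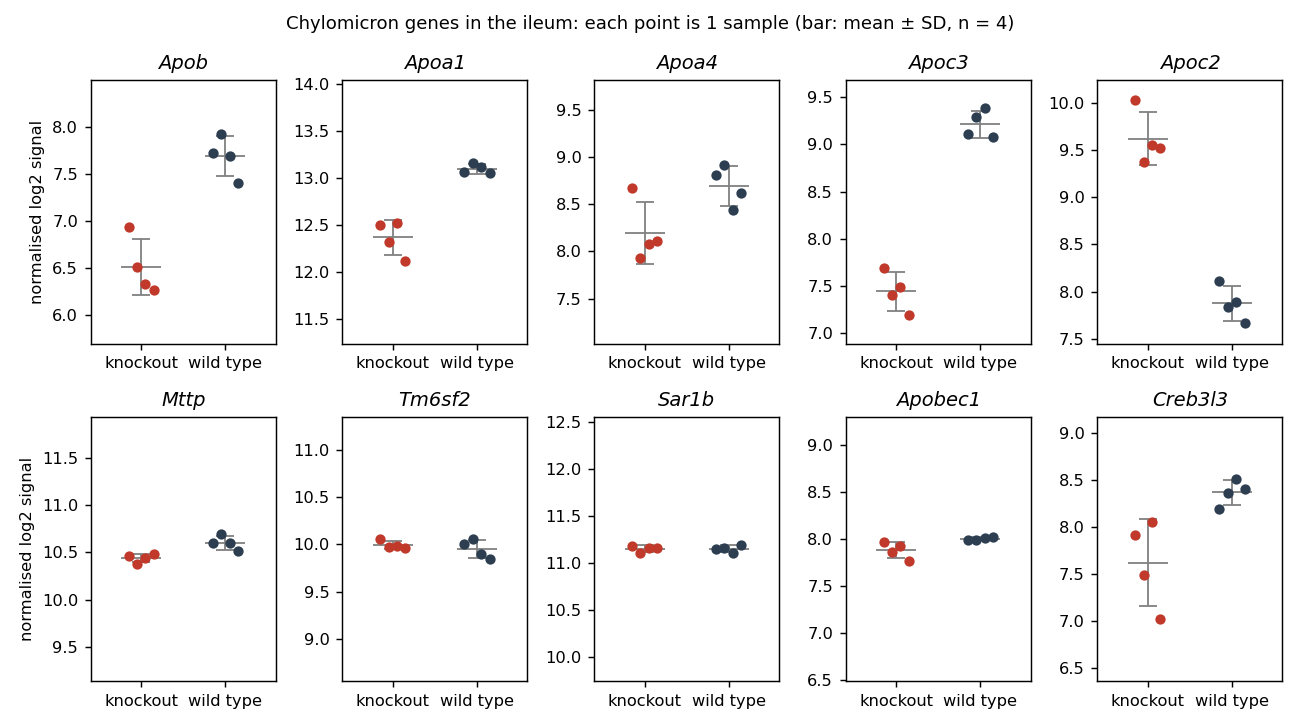
Normalised log2 signal of the 10 genes in each of the 4 knockout samples (red, left) and 4 wild-type samples (dark, right); grey bars give the mean and SD, and every panel spans the same range of log2 units. The genotypes separate widely for Apoc3, Apoc2 and Apob, whereas those of Sar1b and Tm6sf2 overlap.

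The surface apolipoproteins that act on lipoprotein lipase gave the largest and smallest of the 10 differences. Apoc3, the inhibitor, had 7.69, 7.40, 7.49 and 7.19 in knockout samples, against 9.11, 9.29, 9.38 and 9.08 in wild-type samples. Every knockout sample lay below every wild-type sample by more than the whole spread within either genotype. The difference was -1.77 (SE 0.10, 95% interval -2.00 to -1.55, limma adjusted p = 1.27e-06), a knockout signal 29.3% of that in wild type.

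Apoc2, the activator, had 10.03, 9.38, 9.56 and 9.53 in knockout samples, against 8.11, 7.84, 7.89 and 7.67 in wild-type samples. The groups were again far apart, with knockout replicate 1 the highest of all. The difference was 1.75 (SE 0.13, 95% interval 1.46 to 2.04, limma adjusted p = 6.69e-06), or 3.36 times the wild-type signal. Both calls were kept in all 20 alternatives, in which the difference ran from -1.86 to -1.15 for Apoc3 and from 1.61 to 2.37 for Apoc2.

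Apob, which encodes the structural protein of the particle, fell. It had 6.93, 6.51, 6.33 and 6.27 in knockout samples, against 7.72, 7.93, 7.69 and 7.40 in wild-type samples. The highest knockout sample was below the lowest wild-type sample. Apob differed by -1.17 (SE 0.14, 95% interval -1.49 to -0.86, limma adjusted p = 0.000128), 44.3% of the wild-type signal, and was read from a single probe set. Its call was also kept in all 20 alternatives, with differences from -1.31 to -0.55.

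Apoa1, the main protein of high-density lipoprotein, which the intestine also secretes on chylomicrons, had 12.50, 12.33, 12.53 and 12.12 in knockout samples, against 13.07, 13.16, 13.12 and 13.05 in wild-type samples. The wild-type samples were tightly grouped (SD 0.05) and the knockout samples less so (SD 0.19), with no overlap. Apoa1 differed by -0.73 (SE 0.08, 95% interval -0.91 to -0.55, limma adjusted p = 7.52e-05). A second probe set, whose probes can match several transcripts of the gene, gave -0.79 (SE 0.08, limma adjusted p = 7.50e-05 over all probe sets). The identifier of the first marks probes that may bind other transcripts as well. Its wild-type signal lay close to the top of the scale, 13.31 to 13.38 among wild-type arrays, where differences can be compressed.

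Apoa4, a chylomicron apolipoprotein that fat feeding is known to induce, had 8.67, 7.93, 8.08 and 8.11 in knockout samples, against 8.81, 8.92, 8.44 and 8.62 in wild-type samples. Knockout replicate 1 lay within the wild-type range and the other 3 lay below it. The difference was -0.50 (SE 0.15, 95% interval -0.83 to -0.17, limma adjusted p = 0.0279). The call rests on few samples. It was lost without wild type replicate 1 or 2 and without knockout replicate 2, 3 or 4 (adjusted p = 0.0650 to 0.0815 over these 5), with a trended, robust eBayes (adjusted p = 0.0699) and without the 3 arrays of lowest hybridization control (adjusted p = 0.336).

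**Figure D2:**
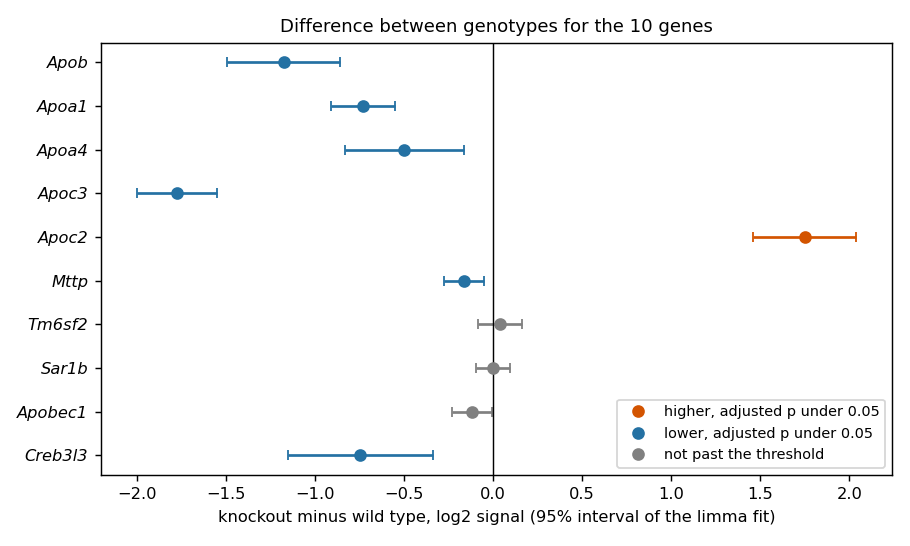
Difference between knockout and wild type for each gene on the log2 scale, with the 95% interval of the limma fit (n = 4 per genotype), coloured by the test. Apoc3 and Apoc2 lie at opposite ends, at -1.77 and 1.75, and the intervals of Sar1b and Tm6sf2 are narrow and include 0.

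The genes of particle lipidation and transport differed by 0.16 or less. Mttp, the lipid transfer protein that loads apolipoprotein B, had 10.46, 10.38, 10.44 and 10.48 in knockout samples, against 10.60, 10.70, 10.60 and 10.51 in wild-type samples. The groups did not overlap, although knockout replicate 4 nearly met wild type replicate 4. The difference was -0.16 (SE 0.05, 95% interval -0.27 to -0.05, limma adjusted p = 0.0335), and a second probe set gave -0.20 without passing over all probe sets (limma adjusted p = 0.0639, overlapping groups). The call was lost without wild type replicate 1, 2 or 3 and without knockout replicate 1, 2 or 3 (adjusted p = 0.0535 to 0.0911), with median centring (adjusted p = 0.0549), scaled to pan-epithelial genes (adjusted p = 0.0861), with the replicate block (adjusted p = 0.0712) and without the 3 arrays of lowest hybridization control (adjusted p = 0.134).

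Tm6sf2, a membrane protein of the secretory pathway that promotes lipidation of apolipoprotein B particles, had 10.05, 9.97, 9.99 and 9.96 in knockout samples, against 10.01, 10.06, 9.90 and 9.84 in wild-type samples. Its groups overlapped. The difference was 0.04 (95% interval -0.08 to 0.16, limma adjusted p = 0.664), and the sign turned with quantile normalisation and with cyclic loess.

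Sar1b, the COPII GTPase whose loss in humans causes chylomicron retention disease, had 11.19, 11.10, 11.16 and 11.16 in knockout samples, against 11.15, 11.16, 11.11 and 11.20 in wild-type samples. Knockout and wild-type values were interleaved. The difference was -0.0006 (95% interval -0.10 to 0.10, limma adjusted p = 0.995).

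Apobec1 encodes the cytidine deaminase that edits Apob mRNA and so produces the short apolipoprotein B-48 of the intestine. It had 7.97, 7.86, 7.93 and 7.77 in knockout samples, against 7.99, 7.99, 8.01 and 8.02 in wild-type samples. The groups did not overlap, yet the test was not passed. Apobec1 differed by -0.12 (SE 0.05, 95% interval -0.23 to -0.01, limma adjusted p = 0.107), and it passed with quantile normalisation (adjusted p = 0.0444) and cyclic loess (adjusted p = 0.0241). Expression arrays do not read the edited base, so the editing level was not measured.

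Creb3l3 encodes CREBH, a transcription factor held in the endoplasmic reticulum membrane and released by proteolysis, which in mouse liver is known to induce Apoa4 and Apoc2 among other genes. It had 7.91, 7.48, 8.05 and 7.03 in knockout samples, against 8.19, 8.36, 8.50 and 8.40 in wild-type samples. All knockout samples were below all wild-type samples, but they spread over a whole log2 unit (SD 0.46, against 0.13 in wild type). The difference was -0.75 (SE 0.18, 95% interval -1.15 to -0.34, limma adjusted p = 0.00994). Its array level measures the transcript and not the cleaved, active protein.

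The knockout samples also differed among themselves in these genes. Knockout replicate 1 was the highest of its genotype for 7 of the 10 genes and the lowest for 0, and knockout replicate 4 was the lowest for 6 and the highest for 1. Summed adipocyte marker signal was likewise highest in knockout replicate 1 (1069) and lowest in knockout replicate 4 (306). The same held for villus tip enterocyte (3487 and 3240), smooth muscle (4445 and 3850), hepatocyte (264 and 192) and macrophage sums (10118 and 9106). It did not hold for the sums of the other marker lists. By mean log2 signal the villus tip and macrophage lists were instead highest in knockout replicate 3 (7.65 and 7.29) and lowest in knockout replicate 2 (7.47 and 7.09). The proximal intestine list was by that measure highest in knockout replicate 1 (6.26) and lowest in knockout replicate 4 (6.07). The part of these populations in the order of the 10 genes was not tested. In wild type, replicate 2 was the highest for 5 of the 10 genes and replicate 4 the lowest for 6. There the enterocyte, pan-epithelial and proximal intestine sums were highest in replicate 2 and lowest in replicate 4. By mean log2 signal the pan-epithelial list was lowest in wild type replicate 1 instead (11.73). The wild-type adipocyte sum was highest in replicate 1 (695) and lowest in replicate 3 (522). The SD was larger in knockout than in wild type for 7 of the 10 genes, beside 58.3% of all genes, with a median SD of 0.20 in knockout and 0.11 in wild type for the 10 genes. Over all genes the median SD was 0.09 in knockout and 0.07 in wild type.

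**Figure D3:**
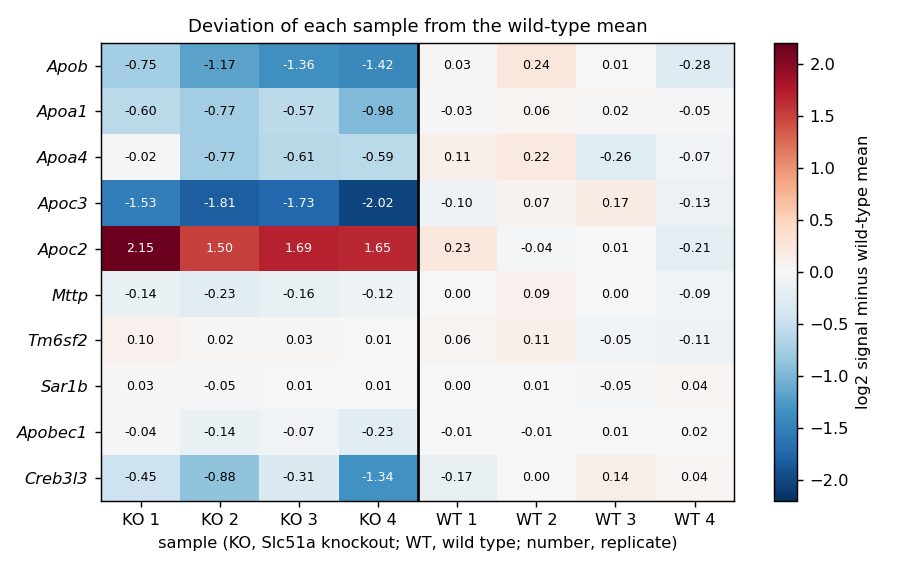
Each cell gives a sample's log2 signal minus the wild-type mean of that gene, for 4 knockout samples (KO, left of the line) and 4 wild-type samples (WT, right). Apoa4 in knockout replicate 1 stayed at the wild-type mean (-0.02), whereas the deviation of Creb3l3 in knockout replicate 4 was -1.34.

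Genes of 1 apolipoprotein cluster did not all change. On chromosome 9 the adjacent genes Apoa1, Apoc3 and Apoa4 fell, and Apoa5, the next gene and a liver apolipoprotein, had 4.91 in knockout and 4.83 in wild type (limma adjusted p = 0.505). Of the 13 other tested genes within 8 genes on either side of Apoa1, 1 rose, 2 fell and 10 did not pass. Sik3, the other neighbour of Apoa1, named after its value was seen, differed by -0.02. On chromosome 7 Apoc2 rose and the other apolipoprotein genes of its cluster did not pass. Its neighbours Apoc4 and Apoc1 differed by 0.02 and 0.0005, and Apoe, the remnant receptor ligand, had 8.27 in knockout and 8.53 in wild type, a difference of -0.26 with overlapping groups (limma adjusted p = 0.113). Of the 13 other tested genes around Apoc2, 2 rose, 1 fell and 10 did not pass. Over all genes 30.0% passed. The largest differences among these other genes were -0.86 for Relb near Apoc2 (limma adjusted p = 6.89e-06) and -0.38 for Sidt2 near Apoa1 (limma adjusted p = 0.000131). Both were named after their values were seen. Apoc1 lay at 4.36 in both genotypes.

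**Figure D4:**
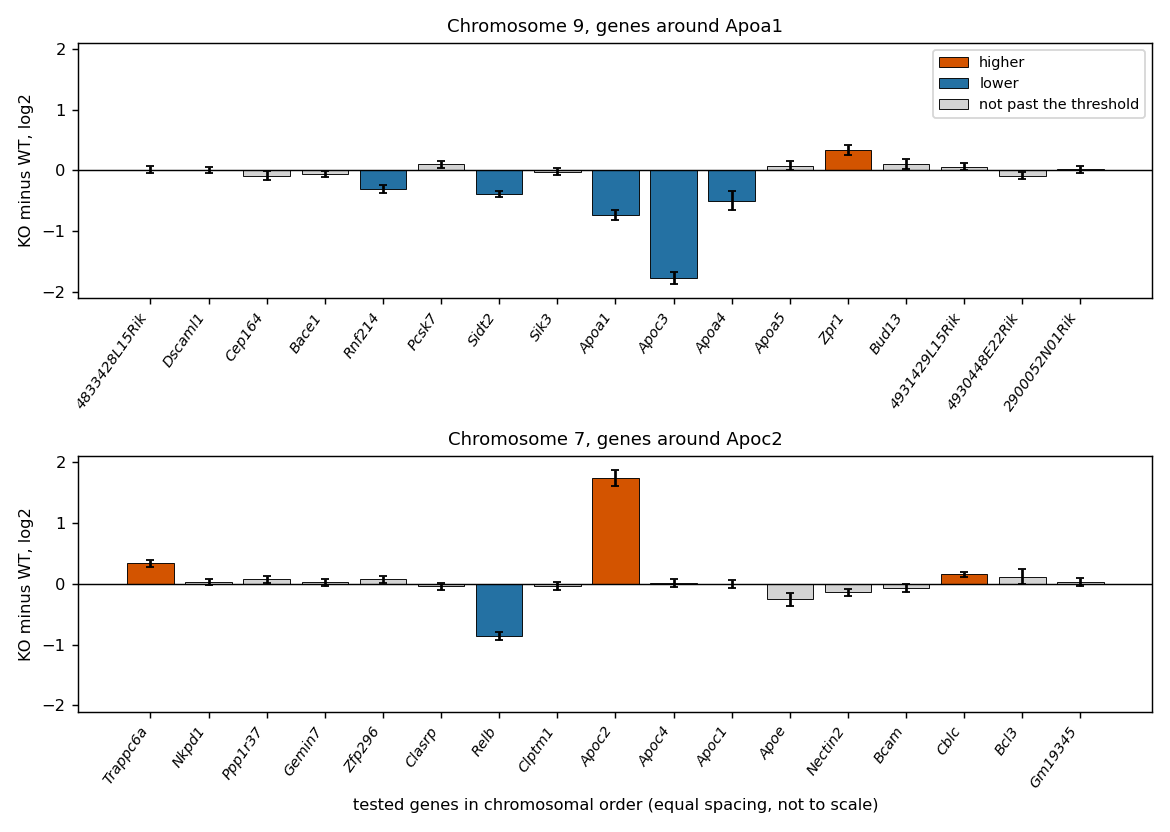
Knockout minus wild-type difference (bars, log2; error bars, SE of the limma fit) of tested genes in chromosomal order, equally spaced and not to scale, around Apoa1 on chromosome 9 (top) and Apoc2 on chromosome 7 (bottom). Apoa1, Apoc3 and Apoa4 form a block of falls, while Apoc2 rose beside Apoc4, Apoc1 and Apoe, which did not pass.

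Of 112 measured genes in 8 lists that exclude the 10, 15 rose and 10 fell. The share called was 22.3%, beside 30.0% of all genes. A gene is called dim here when its mean was under the median probe set signal, 4.58, in both genotypes. Of 10 other apolipoproteins, 1 rose, 1 fell and 8 did not pass (median difference 0.01). Apod, which carries small lipids, differed by -0.30 (limma adjusted p = 0.0114) but was dim. Apoa2, a protein of high-density lipoprotein, differed by 0.16 (limma adjusted p = 0.0470), and its call was lost without wild type replicate 1, 3 or 4 or knockout replicate 2, 3 or 4. It was also lost with the replicate block (adjusted p = 0.0504), a trended, robust eBayes (0.0717), all probe sets in the fit (0.0592) and without the 3 arrays (0.0970). The number lower was 2 without wild type replicate 2.

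Of 4 measured genes that are partners of Apob editing or deaminases related to Apobec1, 1 rose and 3 did not pass. The one that rose was a related deaminase and not an editing partner, the muscle gene Apobec2 (0.38, limma adjusted p = 0.0110), and it was dim. The editing cofactor gene Rbm47 was at 9.70 in knockout and 9.74 in wild type (named after its value was seen, limma adjusted p = 0.558).

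Genes of lumenal lipidation and of lipoprotein export from the endoplasmic reticulum moved in both directions by small amounts. Of 10 genes, 2 rose, 4 fell and 4 did not pass (median 0.01, range -0.31 to 0.22). Pla2g12b, a secreted-phospholipase relative needed for particle expansion in mouse liver, had 9.60, 9.38, 9.30 and 9.29 in knockout samples, against 9.73, 9.76, 9.69 and 9.62 in wild-type samples, and fell by 0.31 (SE 0.07, limma adjusted p = 0.00681). Cideb, a lipid-droplet protein that helps lipidate apolipoprotein B particles, fell by 0.22 (limma adjusted p = 0.00742), and Vmp1, a lipid scramblase of the endoplasmic reticulum, by 0.17 (limma adjusted p = 0.0124). Surf4, the cargo receptor for apolipoprotein B in mouse liver, had 8.80, 8.76, 8.78 and 8.85 in knockout samples, against 8.56, 8.67, 8.48 and 8.61 in wild-type samples, and rose by 0.22 (SE 0.05, limma adjusted p = 0.00756). Without the 3 arrays of lowest hybridization control the falls of Pla2g12b, Cideb and Vmp1 did not pass (adjusted p = 0.152, 0.114 and 0.105), and 0 genes of the list were lower and 1 higher. The number higher was 1 without any of wild type replicates 1, 3 and 4 or knockout replicates 1, 2 and 3, and 5 when probe sets were averaged, while the number lower was 2 when scaled to pan-epithelial genes.

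Of 26 genes of the COPII coat and of prechylomicron vesicles, 5 rose, 0 fell and 21 did not pass in the limma fit (median 0.03). The share called, 19.2%, all of it higher, compares with 17.1% higher over all genes. At an unadjusted p of 0.05, 7 were higher and 2 lower. Sec13, an outer-coat protein shared with the nuclear pore, had 9.86, 9.84, 9.91 and 10.09 in knockout samples, against 9.33, 9.36, 9.20 and 9.29 in wild-type samples. It rose by 0.63 (SE 0.06, limma adjusted p = 3.44e-05) with no overlap. The coat genes Sec24d and Sec23b rose by 0.41 (limma adjusted p = 0.000252) and 0.22 (limma adjusted p = 0.0218). The Sec24d call was kept in all 19 alternatives, and that of Sec23b was lost with cyclic loess (adjusted p = 0.0946), without the 3 arrays (0.174) and without wild type replicate 1 or 3 or knockout replicate 1 or 4 (0.0553 to 0.0636). Fabp1, a fatty acid binding protein that takes part in budding of these vesicles in rodent enterocytes, had 8.84, 7.67, 8.50 and 8.88 in knockout samples, against 7.69, 7.68, 7.73 and 7.73 in wild-type samples, so that knockout replicate 2 sat at the wild-type level (difference 0.76, SE 0.21, limma adjusted p = 0.0196). The Fabp1 call was lost without knockout replicate 1 or 4 (adjusted p = 0.0570 and 0.0527), and the number of genes higher fell to 3 without wild type replicate 1, wild type replicate 3 or knockout replicate 1 and to 2 without knockout replicate 4. The coat count was 2 without the 3 arrays, and 3 genes were lower with quantile normalisation or cyclic loess.

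Among 29 regulators of these genes, 3 rose, 2 fell and 24 did not pass (median -0.01). Hnf4g, the second HNF4 receptor of the intestine, had 9.83, 9.67, 9.89 and 9.98 in knockout samples, against 10.04, 10.26, 10.29 and 10.16 in wild-type samples. It fell by 0.35 (SE 0.08, limma adjusted p = 0.00510), a call lost when all its probe sets were averaged (adjusted p = 0.295). Hnf4a, named after its value was seen, differed by -0.10 (limma adjusted p = 0.127). Mbtps2, the protease that makes the second cut releasing CREBH, rose by 0.53 (SE 0.07, limma adjusted p = 0.000216), whereas Mbtps1, which makes the first and was named after its value was seen, was at 8.17 in knockout and 8.06 in wild type (limma adjusted p = 0.172). Ppara, the fatty acid receptor, rose by 0.53 (SE 0.12, limma adjusted p = 0.00686), a call lost without the 3 arrays (adjusted p = 0.0873). Nr2f6, an orphan receptor, rose by 0.22 (limma adjusted p = 0.0274), a call lost without any 1 of wild type replicates 1, 2 and 3. The number of regulators lower was 1 without wild type replicate 2 or 4 or knockout replicate 3, 5 with quantile normalisation and 7 with cyclic loess.

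Of 16 genes that resynthesise triglyceride from absorbed fatty acids, 1 rose, 3 fell and 12 did not pass (median -0.02). Lpin2, a phosphatidate phosphatase, fell by 0.63 (SE 0.06, limma adjusted p = 4.08e-05), Dgat2, which makes triglyceride, by 0.41 (SE 0.09, limma adjusted p = 0.00688) and the acyltransferase Agpat3 by 0.41 (SE 0.08, limma adjusted p = 0.00326). Acsl3, an acyl-CoA synthetase, rose by 0.44 (SE 0.11, limma adjusted p = 0.00827). The enterocyte enzymes Mogat2 and Dgat1, named after their values were seen, differed by 0.02 and -0.02. The number higher was 2 without knockout replicate 1, and 5 were lower with cyclic loess.

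Of 13 genes of lipolysis and lipoprotein receptors, 2 rose and 11 did not pass (median -0.01). Lmf1, which matures lipoprotein lipase, rose by 0.50 (SE 0.10, limma adjusted p = 0.00316) and Angptl8, an inhibitor of that lipase, by 0.26 (limma adjusted p = 0.0150), and neither passed without the 3 arrays (adjusted p = 0.0752 and 0.130). Lpl, named after its value was seen, differed by 0.03 (SE 0.18). Of 5 measured genes reported as CREBH targets in mouse liver besides Apoa4 and Apoc2, 0 passed in the limma fit and 0 at an unadjusted p of 0.05, while 1 was called lower without wild type replicate 3. Of these 5, 3 were dim.

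**Figure D5:**
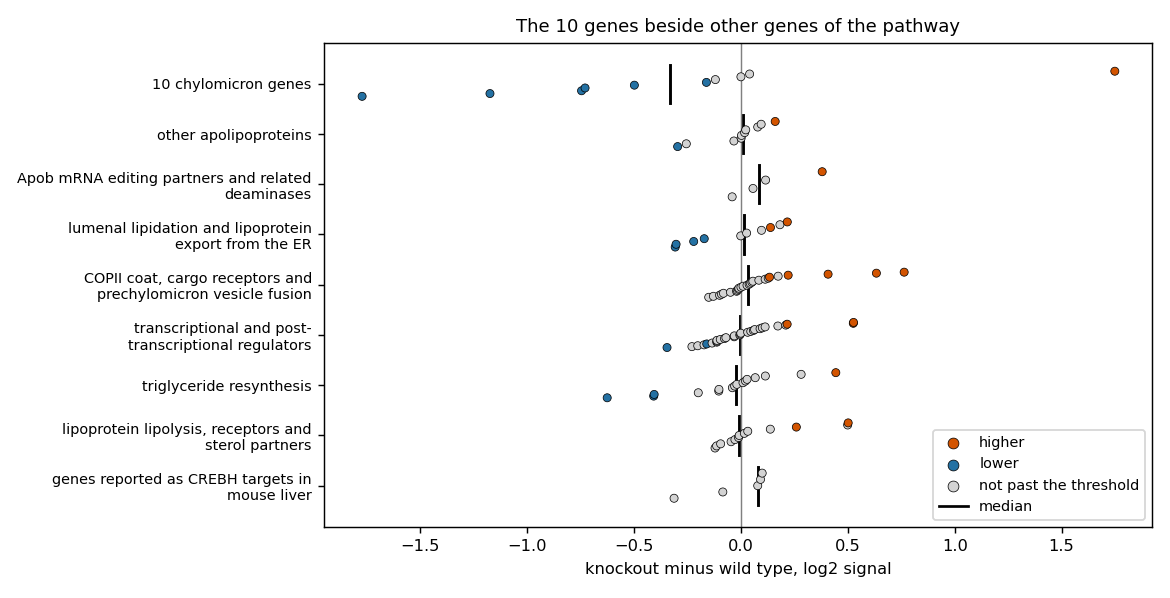
Knockout minus wild-type difference (log2) of each measured gene, for the 10 genes described and 8 further lists; points are genes coloured by the test, and vertical lines are list medians. The 10 genes reach from -1.77 to 1.75, while the lists below stay between -0.63 and 0.76.

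Markers of several cell populations moved in the same samples. Of 12 enterocyte genes, 0 rose and 11 fell (median -0.48), and their summed linear signal was 23473 to 25322 in knockout samples, against 31437 to 34999.9 in wild-type samples. The brush border genes Mep1a and Anpep fell by 1.28 and 0.87. Of 7 genes known in mouse small intestine for high levels toward the villus tip, where Apoa4 and Creb3l3 are also known to be high, 6 fell and 1 did not pass (median -0.83). Among them Slc28a2 changed by -4.05, Ada by -2.74, Nt5e by -1.85 and Klf4 by -0.83, and the summed signal was 3240 to 3487 in knockout samples and 5201 to 6438 in wild-type samples. Of 10 pan-epithelial genes, 2 rose, 3 fell and 5 did not pass (median -0.07), with summed signals of 40061 to 42584.5 in knockout samples and 41831 to 43153 in wild-type samples.

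Of 8 smooth muscle genes 8 fell (median -0.79, summed signal 3850 to 4445 in knockout samples and 5990 to 7959 in wild-type samples), as did 8 of 8 T lymphocyte genes (median -1.48, summed signal 515 to 783 in knockout samples and 2745 to 3448 in wild-type samples). Of 8 hepatocyte genes 1 rose, Ttr, by 1.20 (limma adjusted p = 0.000276) with no overlap. Alb, which defines that cell, was dim at 4.12 in knockout and 4.21 in wild type. With Alb, 5 of the 8 were dim, and summed signals were 192 to 264 in knockout samples and 182 to 194 in wild-type samples. Most of the difference between these sums was the signal of Ttr alone (6.57 in knockout and 5.37 in wild type). Of 5 adipocyte genes 0 passed in the limma fit and 0 at an unadjusted p of 0.05 (summed signal 306 to 1069 in knockout samples and 522 to 695 in wild-type samples). Crypt stem and cycling genes moved in both directions, 4 of 9 rising and 2 falling. The cycling genes Bub1, Cdk1, Top2a and Mki67 rose by 0.84, 0.46, 0.27 and 0.22. The stem cell genes Lgr5 and Olfm4 fell (-0.31 and -0.18). Mki67 and Olfm4 passed narrowly (limma adjusted p = 0.0483 and 0.0464), and the groups overlapped for Mki67, Olfm4 and Lgr5. The Lgr5 call was lost in 9 alternatives and that of Top2a in 3. Summed signals of this list were 5158 to 5851 in knockout samples and 5345 to 5731 in wild-type samples. Of 8 macrophage genes, Cd14 and Mrc1 rose by 0.44 and 0.40 and C1qa and Lyz2 differed by -0.65 and -0.16. Their summed signal was 9106 to 10118 in knockout samples and 10509 to 11082 in wild-type samples. Most of this sum was the signal of Lyz2 alone (13.15 in knockout and 13.31 in wild type). The Lyz2 call was lost in 9 alternatives and that of Mrc1 in 4. Of 6 pancreatic acinar genes Cela1 rose by 1.17 and 5 did not pass (summed signal 303 to 330.5 in knockout samples and 188 to 204 in wild-type samples). Most of the difference between these sums was the signal of Cela1 alone (7.69 in knockout and 6.53 in wild type). The part of these populations in the differences of the 10 genes was not tested.

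Scaled instead to the enterocyte genes, a setting added after the data were seen that moved the median of all genes by 0.62 and called 16255 genes higher and 218 lower, Apoc3 (-1.15) and Apob (-0.55) were still called lower and Apoc2 (2.37) higher. Apoa1 differed by -0.11 (limma adjusted p = 0.155) and Creb3l3 by -0.13 (limma adjusted p = 0.400) on that scale, and Apoa4 by 0.12 (limma adjusted p = 0.358). Mttp, Apobec1, Sar1b and Tm6sf2 were called higher on it, by 0.46, 0.50, 0.62 and 0.66, about the shift of all genes. The signs of Apoa4, Mttp, Apobec1 and Sar1b were thus opposite on the scales.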

How the data were processed

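The deposited values are log2 signals per probe set. The submitters' processing notes name RMA, with no version in the sources used here. RMA equalises the distributions of arrays and compresses signals near the floor, so folds of dim genes are understated. Per the labels' protocols, 250 ng of Trizol-extracted RNA was labelled with a 3' in vitro transcription kit. Array strip and scan date were not given, so a batch that runs with genotype cannot be told apart from it. The 4 arrays per genotype limit the precision.

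Of 45141 probe sets 104 were controls, and 28898 of the others had 1 gene symbol, 551 several and 15588 none; 28689 of the single-symbol probe sets were matched by Entrez identifier to RefSeq (GRCm38.p6), which changed 0 symbols of the 10 genes. A gene was read from its probe set with the highest mean over 8 arrays, with no filter on dim genes. Knockout minus wild type was fitted with limma 3.58.1 in R 4.3.3 over all 17097 genes, 2-sided, with Benjamini-Hochberg adjustment; probe sets of the 10 genes were also tested over all 45037 probe sets, of which 21.6% passed. Named are the 10 genes, up to 4 called genes of each list by adjusted p, Slc51a, and others where stated. Apoa5, Apoc1, Apoc4, Apoe, Alb, Fabp6, Gata4, Cyp8b1, Onecut2, Mki67 and Olfm4 were also named outside this rule. The genes and lists were chosen with earlier results of these data known. The alternatives tried were other normalisations (cyclic loess, quantile, median centring), scaling to pan-epithelial or enterocyte genes, dropping dim genes, other probe set summaries, array weights, trended and robust eBayes, the replicate block and leaving out arrays. Leaving out the 3 arrays with the lowest hybridization controls (knockout 3, knockout 4 and wild type 2) and scaling to enterocyte genes were added after the data were seen. Figures were drawn with matplotlib 3.10.9.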

Additional observations from a re-analysis of the deposited data

How the results depend on the processing

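The number of the 10 genes higher was 1 in 19 of the 20 alternatives and 5 when scaled to enterocyte genes, and the number lower ran from 4 to 7 in the others and was 2 when scaled to enterocyte genes, where 16255 of all genes were higher and 218 lower. On leaving out 1 array the number lower ran from 4 to 6, and that of probe sets lower from 5 to 7. The calls of Apoc3, Apob and Apoc2 were kept in all 20. Genes of the other pathway lists were 15 higher and 10 lower, and on leaving out 1 array these ran from 10 to 15 and from 8 to 11. Without the 3 arrays of lowest hybridization control they were 5 and 5. Over all genes 2079 were then higher and 1414 lower, against 2924 and 2210 with all arrays. With quantile normalisation 16 and with cyclic loess 21 genes of these lists were lower. Signs turned for Sar1b with median centring (0.0212), scaling to pan-epithelial genes (0.0419), scaling to enterocyte genes (0.62), without wild type replicate 2 or 4 and without knockout replicate 2, its differences on leaving out 1 array running from -0.0159 to 0.0160. They turned for Tm6sf2 with quantile normalisation (-0.0232) and cyclic loess (-0.0483), and with enterocyte scaling for Apoa4 (0.12), Apobec1 (0.50) and Mttp (0.46). The cause of these shifts was not tested, except that enterocyte scaling adds 1 shift to all genes of an array and fewer arrays lower the power. The labels state no pairing by replicate number. Deviations of same-numbered samples correlated at 0.22, -0.05, 0.11 and 0.16, and for replicates 1, 3 and 4 the best match was the own number, a hint from the data only, so the samples were not treated as paired. With the replicate block 1 of the 10 genes was higher and 5 were lower, the Mttp call being lost (adjusted p = 0.0712), as was that of Apoa2 (adjusted p = 0.0504). Whether a dim transcript is expressed is limited by the lack of detection calls.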
